A study of Mus musculus with 6 samples.

Results

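Potassium channels set the resting voltage of a cell by letting potassium leave it. Inward rectifiers (the *Kcnj* genes) are built of subunits with a pair of membrane-spanning helices and pass current best near the resting voltage. Two-pore channels (the *Kcnk* genes) carry a pair of pore loops in each subunit and give a background leak. In adipose tissue, such genes are expressed by adipocytes and also by vessel walls, muscle fibers, nerves and immune cells. Fewer cells of a type and less RNA per cell cannot be told apart in RNA from whole tissue.

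The genes described are *Kcnj15* and the 9 other inward rectifier and two-pore channel genes listed around it (*Kcnj2*, *Kcnj8*, *Kcnj11*, *Kcnj12*, *Kcnj16*, *Kcnk2*, *Kcnk3*, *Kcnk5* and *Kcnk6*), 10 of the 55401 genes counted. *Kcnj15* was selected on its log2 fold change between these same libraries, so its change is described without a test. The other 9 genes are a part of their families, which hold 9 other inward rectifier and 10 other two-pore genes. They were listed with earlier results of these data known.

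RNA-seq was done on subcutaneous white adipose tissue (scWAT) of 8-week-old male mice kept at room temperature, with 3 mice and 3 libraries per group. The control mice, marked WT in the sample labels, carried floxed *Yap* and *Taz* without Cre according to the study's methods (YT-FF). The YT-AKO mice carried the same floxed alleles and *Adipoq*-Cre. This Cre is active in mature adipocytes, so other cells of the tissue keep both genes.

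The total count ran from 17740987 to 21838493 per library, and 16807 genes passed the filter on low counts. Counts of *Yap1* were 1622, 1300 and 1295 in the YT-FF libraries and 649, 492 and 529 in the libraries labelled YT-AKO (log2 fold change -0.98, standard error (SE) 0.167, adjusted p = 0.0179). Those of *Wwtr1*, which encodes TAZ, went against the label: 1818, 1729 and 1918 counts in YT-FF against 3015, 2253 and 2716 (0.89, SE 0.182, adjusted p = 0.0220). These are counts over whole genes and not over the floxed exons, and every direction below is that of the libraries labelled YT-AKO. Library 2 of that label stood apart. Its chi-square per degree of freedom against the other libraries of its group was 177 and 161, where other pairs within a group gave 13.0 to 36.0. At an adjusted p under 0.05, 12.6% of tested genes (2121) were higher in the YT-AKO label and 9.01% (1515) were lower. With library totals in place of TMM these were 1137 and 2828 genes, and the median log2 fold change of all genes moved from -0.02 to -0.34. The libraries held RNA of adipocytes, with 12569 to 18303 CPM (counts scaled by TMM-adjusted library size) summed over 8 adipocyte markers in YT-FF and 21392 to 35293 in the libraries labelled YT-AKO. The sum over 8 beige adipocyte markers was 184 to 253 against 1677 to 3634 CPM, with 6 of the 8 genes higher.

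The sequences shown are those of the part that makes these proteins potassium channels. Each subunit lines the pore with a selectivity filter, and the capitals mark the 15 bases that code for it, within 45 bases of coding sequence from the GENCODE transcripts (GRCm38). A search of all 10 coding sequences found 1 filter in each of the 6 *Kcnj* genes and 2 in each of the 4 *Kcnk* genes. Printed are *Kcnj15*, *Kcnj16* and *Kcnk3*, whose CPM did not overlap between the groups, and *Kcnj8*, the inward rectifier with the highest level. The windows lie at chr16:95295965-95296009 (+ strand) for *Kcnj15*, chr11:111024889-111024933 (+) for *Kcnj16*, chr6:142566433-142566477 (-) for *Kcnj8* and chr5:30622187-30622231 (+) for the second filter of *Kcnk3*. The 45-base window around the first filter of *Kcnk3* is split by an intron, so the bases of the window lie between positions 30588578 and 30621913 of chromosome 5.
Kcnj15: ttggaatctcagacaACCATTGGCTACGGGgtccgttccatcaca
Kcnj16: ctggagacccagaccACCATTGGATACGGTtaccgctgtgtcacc
Kcnj8: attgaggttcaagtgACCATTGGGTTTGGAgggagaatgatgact
Kcnk3 filter 1: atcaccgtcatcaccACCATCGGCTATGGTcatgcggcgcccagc
Kcnk3 filter 2: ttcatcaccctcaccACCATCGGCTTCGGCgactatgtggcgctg

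Among the 10 channel genes, the libraries labelled YT-AKO had far less *Kcnj15* and more *Kcnk3*, and *Kcnj16* was low in all 3 of them without passing the test. The filter on low counts kept 9 of the 10 genes and left out *Kcnj12*. Of these 9, 1 was called higher (*Kcnk3*, against 12.6% of all tested genes) and 1 lower (*Kcnj15*, against 9.01%, from which nothing is read since *Kcnj15* was picked for this). The median log2 fold change of the 8 tested genes other than *Kcnj15* was -0.16, beside -0.02 over all tested genes. In TMM-normalized CPM the groups did not overlap for 1 of these 8 that was higher (*Kcnk3*) and 1 that was lower (*Kcnj16*), where 25.7% and 25.8% of all tested genes did so.

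**Figure D1:**
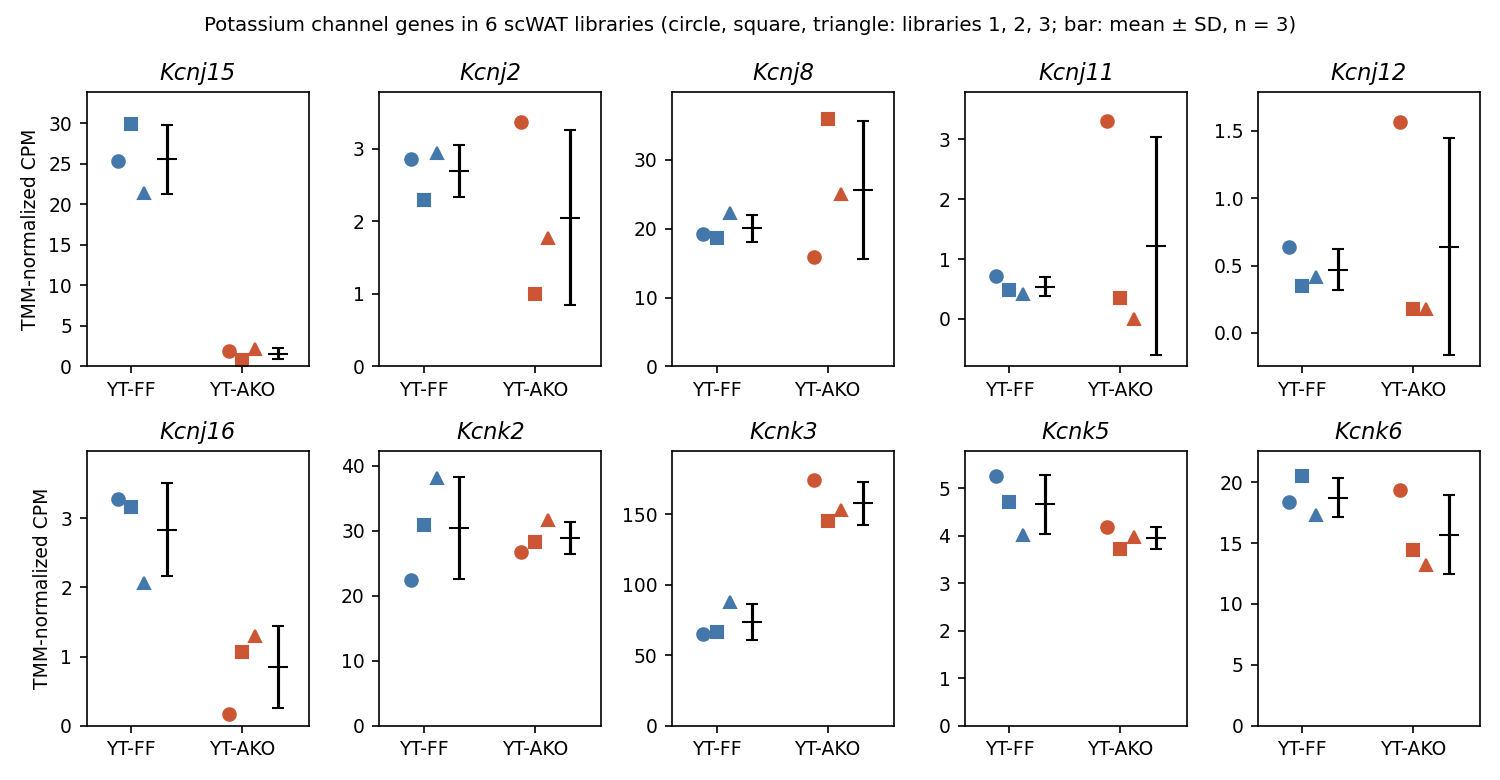
TMM-normalized CPM of the 10 channel genes (vertical axes, each gene with its own scale) in 3 YT-FF and 3 YT-AKO libraries. Symbols are single libraries and bars are the mean ± SD. *Kcnj15* lies at 21.4 to 29.9 CPM in YT-FF and at 0.767 to 2.13 CPM in the libraries labelled YT-AKO, *Kcnk3* lies higher in all 3 of the latter, and *Kcnj11* and *Kcnj12* are high in library 1 alone.

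*Kcnj15* (ENSMUSG00000062609, chr16:95257558-95300260, + strand, GRCm38) encodes an inward rectifier subunit known from kidney and other epithelia. It had 595, 680 and 415 counts in the YT-FF libraries and 32, 13 and 36 in the libraries labelled YT-AKO. After TMM normalization these were 25.4, 29.9 and 21.4 CPM against 1.86, 0.767 and 2.13 CPM. Every library of one group lay over 10 times above every library of the other, and no library was at 0. The means were 25.5 ± 4.26 and 1.58 ± 0.721 CPM (SD, n = 3 each), a log2 fold change of -4.00 (SE 0.371) or 16.1-fold lower. Ranked by fall, *Kcnj15* stood 13th of the 15180 genes with a mean of at least 1 CPM. The log2 fold change was -3.68 without library 2 of the YT-AKO label, the library with the fewest *Kcnj15* counts.

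Scaling does not enter a ratio of counts within a library. Per 100 counts of *Adipoq*, the adipocyte hormone gene, *Kcnj15* had 1.72, 2.03 and 1.07 counts in YT-FF against 0.0959, 0.0319 and 0.0911 in the libraries labelled YT-AKO. Per 100 counts of *Plin1*, which encodes the coat protein of the lipid droplet, the values were 1.71, 1.92 and 1.18 against 0.0970, 0.0524 and 0.0752. Both ratios separated the groups, as the CPM did. *Kcnj15* was picked for this fall, so nothing further is read from the ratios.

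Markers of epithelia, where *Kcnj15* is known, were low in all libraries. The 7 epithelial markers summed to 4.02 to 5.32 CPM in YT-FF and 4.37 to 5.81 CPM in the libraries labelled YT-AKO, 2 of them passed the filter, and neither was called. The B cell markers were lower between the groups as well, with 4 of 6 called lower (against 9.01% of all tested genes). Their sums were 1170, 1200 and 1016 CPM in YT-FF against 635, 859 and 618 CPM in the libraries labelled YT-AKO. Within that label the order differed: the B cell sum was highest in library 2, where *Kcnj15* was lowest. The part of B cells in the fall of *Kcnj15* was not tested.

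The surroundings of *Kcnj15* were examined within 1000 kb on each side. Of 37 annotated genes there, 15 were tested, of which 2 were called higher (*Pigp* and *Psmg1*, against 12.6% of all tested genes) and 1 lower (against 9.01%), shares near those of the whole table. The lower one was *Gm31641*, an antisense RNA gene that spans the whole of *Kcnj15* on the other strand and was chosen after its values were seen. It had 28, 19 and 25 counts in YT-FF against 4, 0 and 1 (-3.41, SE 0.818, adjusted p = 0.0295). The call was lost without any 1 of the YT-FF libraries or without library 3 of the YT-AKO label (highest adjusted p = 0.125). Over the whole table, 0 genes were called lower without YT-FF library 1, and 2 without YT-FF library 2. The log2 fold change of *Gm31641* ran from -4.95 without library 1 of the YT-AKO label to -2.86 without library 2 of that label. Counting did not use strand, so fragments of *Kcnj15* introns and of *Gm31641* exons over the same bases cannot be told apart. Another antisense gene, *Gm49643*, covers 5.27% of the exon bases of *Kcnj15*, and fragments there could be given to neither gene.

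The nearest tested gene downstream was *Erg*, an endothelial transcription factor gene that ends 58.9 kb away, with a log2 fold change of -0.35 (SE 0.185, adjusted p = 0.189). On the other side it was *Dyrk1a*, a kinase gene 562 kb away (-0.72, SE 0.256, adjusted p = 0.0761, and 0.0334 at the lowest among the alternative analyses). *Kcnj6*, the inward rectifier gene next to *Kcnj15*, had 0 counts in all 6 libraries.

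**Figure D2:**
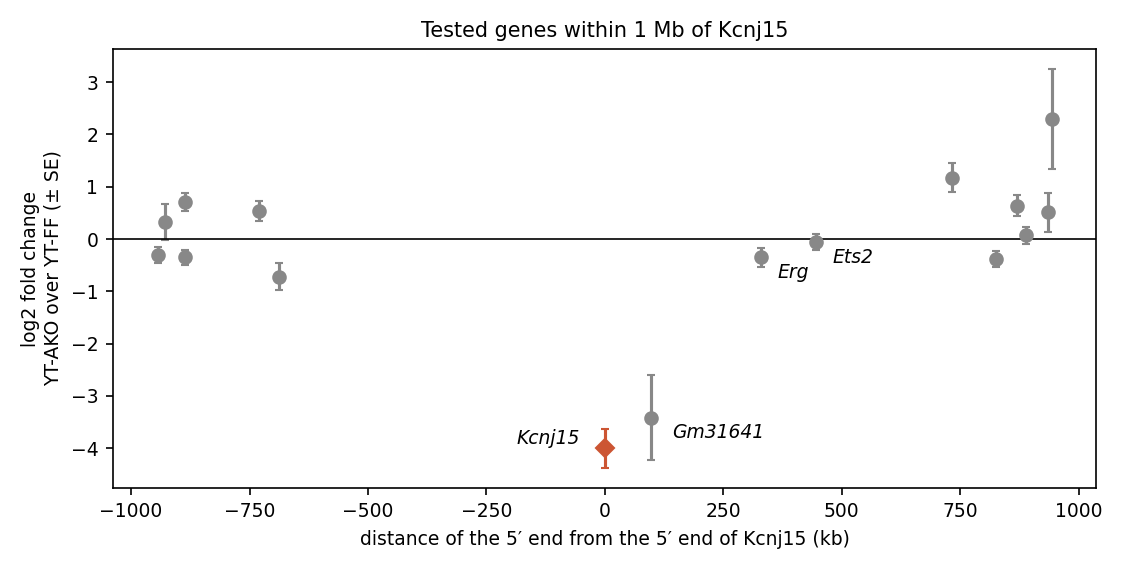
Log2 fold change (YT-AKO over YT-FF, ± SE; vertical axis) of *Kcnj15* (diamond) and the 15 other tested genes within 1 Mb, by the distance of their 5′ ends from that of *Kcnj15* in kb (horizontal axis). *Kcnj15* (-4.00) and the overlapping antisense gene *Gm31641* (-3.41) lie far below the rest, while *Erg*, the nearest tested gene downstream, lies at -0.35.

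The genes with the most similar profile over the 6 libraries were sought by the root mean square difference of log2 CPM, centred on each gene's mean, over 15179 genes. The 5 nearest were *Gm15777*, an antisense RNA (0.362), *Gm5578*, a processed pseudogene (0.391), *Ighj3*, a joining segment of the immunoglobulin heavy chain (0.435), *Gm5627*, a long noncoding RNA (0.452), and *Trbj1-6*, a joining segment of the T cell receptor (0.486). All 5 had fewer counts in YT-FF than *Kcnj15*, and 4 of the 5 had 0 counts in library 2 of the YT-AKO label. *Gm5627* was the exception, with 284, 264 and 290 counts in YT-FF against 14, 12 and 28 in the libraries labelled YT-AKO. With library totals in place of TMM, 4 of the 5 remained. None of the 5 is annotated as protein-coding.

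*Kcnj16* (chr11:110968033-111027968, + strand) encodes a subunit that is mostly silent alone and known to join with the products of *Kcnj10* and *Kcnj15*. It had 77, 72 and 40 counts in YT-FF against 3, 18 and 22 in the libraries labelled YT-AKO, or 3.28, 3.16 and 2.06 against 0.174, 1.06 and 1.30 CPM. The groups did not overlap, and the lowest value was that of library 1. The log2 fold change of -1.74 (SE 0.621) did not pass the test in edgeR (adjusted p = 0.0760). It was the 1 gene of the 8 other than *Kcnj15* that was lower at an unadjusted p under 0.05, as 18.6% of all tested genes were. It passed in DESeq2 (adjusted p = 0.0260), with library totals alone (0.0449) and with no filter on low counts (0.0436), and without library 1 the log2 fold change was -1.25. *Kcnj10*, named here after its values were seen, was at 2.30 ± 0.658 CPM in YT-FF and 1.23 ± 0.107 CPM in the libraries labelled YT-AKO (SD, n = 3 each; -0.90, SE 0.376, adjusted p = 0.113).

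*Kcnj2* lies 38.2 kb from *Kcnj16* on the same strand and encodes a strong inward rectifier known from heart and skeletal muscle. Its counts were 67, 52 and 57 in YT-FF and 58, 17 and 30 in the libraries labelled YT-AKO (2.86, 2.28 and 2.94 against 3.37, 1.003 and 1.77 CPM). Here library 1 was the highest of all 6 and the groups overlapped (-0.39, SE 0.460, adjusted p = 0.545). The ratio of *Kcnj16* to *Kcnj2* in TPM (counts scaled by exon length and to the same total in each library) was 0.0715 in that library and 0.971 to 1.92 in the other 5.

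*Kcnj8* forms the pore of the ATP-sensitive channel of vessel walls and lies 16.2 kb from *Abcc9*, which encodes its sulfonylurea receptor subunit. *Kcnj8* had 452, 423 and 432 counts in YT-FF against 273, 608 and 423 in the libraries labelled YT-AKO, or 19.3, 18.6 and 22.2 against 15.9, 35.9 and 25.0 CPM. The libraries labelled YT-AKO held both the lowest and the highest value (0.35, SE 0.286, adjusted p = 0.378), and with library totals alone the log2 fold change was -0.00771. *Abcc9* was at 84.1, 87.1 and 59.5 CPM in YT-FF and 64.5, 31.6 and 59.2 CPM in the libraries labelled YT-AKO (-0.57, SE 0.286, adjusted p = 0.171). Library 2 had the most *Kcnj8* and the least *Abcc9*. The ratio of the 2 genes in TPM was 3.73 there and 0.701 to 1.39 in the other 5 libraries. *Abcc9* has 8373 exon bases and *Kcnj8* 2548. With a correction for gene length the log2 fold changes were 0.14 for *Kcnj8* and -0.23 for *Abcc9*. The part of gene length in this ratio was not tested. The 9 markers of smooth muscle and pericytes, the cells in which this pair is known, summed to 556 to 614 CPM in YT-FF and 582 to 681 CPM in the libraries labelled YT-AKO, with 1 called higher.

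*Kcnj11* forms the pore of the ATP-sensitive channel of pancreatic beta cells, where it joins with *Abcc8*, and of skeletal muscle. It had 17, 11 and 8 counts in YT-FF against 57, 6 and 0 in the libraries labelled YT-AKO. *Kcnj12*, a strong inward rectifier of muscle, had 15, 8 and 8 against 27, 3 and 3. Both genes were highest in library 1 of the YT-AKO label and lower in libraries 2 and 3 than in any YT-FF library. The log2 fold change of *Kcnj11* was 1.17 (SE 1.196, adjusted p = 0.487) with all libraries and -1.57 without library 1 (adjusted p = 0.316). *Kcnj12* was not tested under the filter and stood at 0.45 with no filter (SE 0.848, adjusted p = 0.744). *Abcc8* was at the edge of detection, with 2, 4 and 1 counts in YT-FF against 9, 0 and 9 in the libraries labelled YT-AKO.

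Skeletal muscle markers were highest in the same library as *Kcnj11* and *Kcnj12*. The 9 markers summed to 516, 138 and 188 CPM in YT-FF and 3643, 486 and 212 CPM in the libraries labelled YT-AKO, and 1 of the 8 tested was called. Library 1 of the YT-AKO label thus held the highest value of the markers and of both channel genes, while libraries 2 and 3 had marker sums within the YT-FF range. The part of muscle tissue in these values was not tested.

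**Figure D3:**
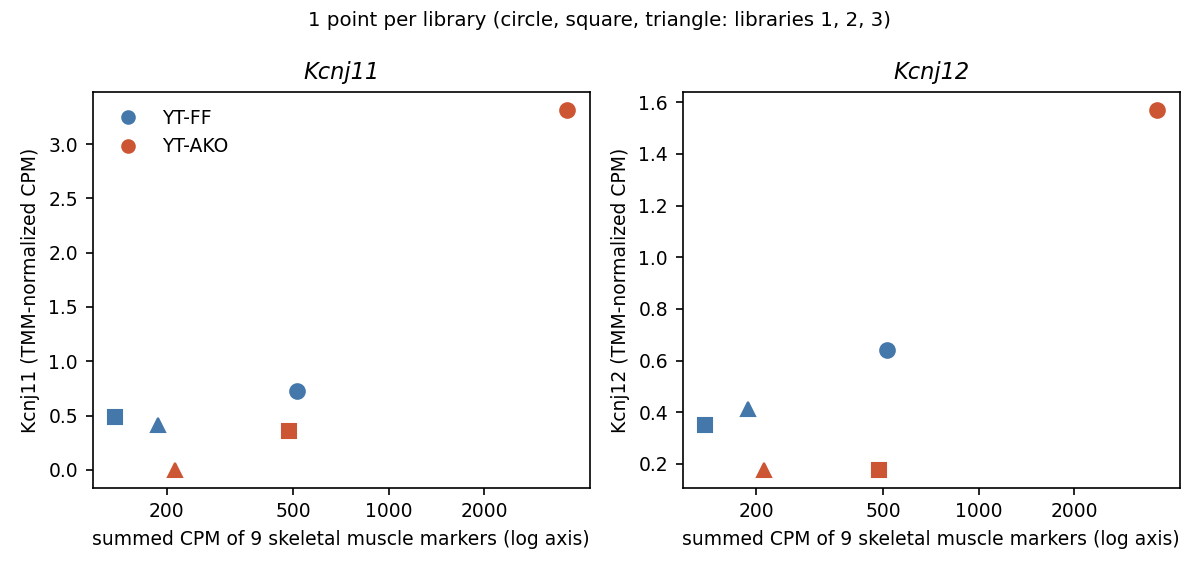
TMM-normalized CPM of *Kcnj11* (left) and *Kcnj12* (right) in the 6 libraries against the summed CPM of 9 skeletal muscle markers (horizontal, log axis). Library 1 of the YT-AKO label lies at 3643 CPM of markers with 3.31 CPM of *Kcnj11* and 1.57 CPM of *Kcnj12*, apart from the other 5 libraries, which stay at or below 0.725 and 0.639 CPM.

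*Kcnk3* (chr5:30588170-30625271, + strand) encodes an acid-sensitive leak channel known from brown adipocytes, where its current opposes depolarization. It had 1533, 1520 and 1709 counts in YT-FF against 3006, 2465 and 2595 in the libraries labelled YT-AKO, or 65.3, 66.8 and 88.0 against 175, 145 and 153 CPM. All 3 libraries labelled YT-AKO lay above all 3 YT-FF libraries. *Kcnk3* rose from 73.4 ± 12.7 to 158 ± 15.2 CPM (SD, n = 3 each), a log2 fold change of 1.11 (SE 0.179) or 2.15-fold (edgeR, adjusted p = 0.0177). The call was lost without YT-FF library 1 (adjusted p = 0.110) or library 2 (0.111), with log2 fold changes of 1.03 and 1.04, and 0 genes of the whole table were called higher in either fit. Without library 2 of the YT-AKO label it was 1.16 (adjusted p = 0.00260).

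Per 100 counts of *Adipoq*, *Kcnk3* had 4.43, 4.54 and 4.40 counts in YT-FF against 9.01, 6.05 and 6.57 in the libraries labelled YT-AKO. Per 100 counts of *Plin1* it had 4.41, 4.28 and 4.87 against 9.11, 9.94 and 5.42. The groups did not overlap in either ratio, and each ratio holds for that marker alone. *Adipoq* and *Plin1* are among the 8 adipocyte markers, and the sum of those markers was also higher in the libraries labelled YT-AKO. It was 12569, 12594 and 18303 CPM in YT-FF against 21392, 35293 and 25380 CPM, highest in library 2. Relative to this sum, unlike per *Adipoq* or *Plin1*, *Kcnk3* did not separate the groups. Library 2 of the YT-AKO label, with 145 CPM of *Kcnk3* beside 35293 CPM of markers, lay below every YT-FF library. The lowest of those, YT-FF library 3, had 88.0 beside 18303 CPM. *Kcnk3* relative to this sum was not tested. The beige adipocyte markers rose with *Kcnk3* between the groups but in another order within them. Their sums were 1677, 3634 and 1805 CPM in the libraries labelled YT-AKO, highest in library 2, where *Kcnk3* was the lowest of the 3. The part of beige adipocytes in the rise of *Kcnk3* was not tested.

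The other two-pore genes did not pass the test. *Kcnk2*, a leak channel gated by stretch and lipids, had 526, 703 and 739 counts in YT-FF against 460, 480 and 534 in the libraries labelled YT-AKO, or 22.4, 30.9 and 38.1 against 26.7, 28.3 and 31.6 CPM. The YT-AKO values lay inside the range of YT-FF (-0.08, SE 0.214, adjusted p = 0.807). *A430027H14Rik* overlaps 12.2% of the exon bases of *Kcnk2*, and *Gm9899* 5.76% of those of *Kcnk3*. *Kcnk5*, a leak channel opened by alkaline pH, had 123, 107 and 78 counts against 72, 63 and 67 (-0.24, SE 0.248, adjusted p = 0.498). *Kcnk6*, a weak inward-rectifying member of the two-pore family, had 432, 466 and 336 counts against 333, 245 and 224 (-0.26, SE 0.202, adjusted p = 0.365). For both, the CPM of the groups overlapped.

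Levels were compared between genes per length, as TPM. In YT-FF the order was *Kcnk3* (69.8 ± 8.85 TPM), *Kcnj8* (29.8 ± 1.48), *Kcnk2* (23.3 ± 5.30), *Kcnk6* (17.2 ± 2.22), *Kcnj15* (15.4 ± 3.24), *Kcnk5* (5.21 ± 0.858), *Kcnj16* (2.76 ± 0.752), *Kcnj2* (1.87 ± 0.190), *Kcnj12* (0.646 ± 0.215) and *Kcnj11* (0.560 ± 0.180; SD, n = 3 each). The ranges of mean ± SD of neighbours from *Kcnj8* to *Kcnj15* overlapped, as did those of *Kcnj16* and *Kcnj2* and of the last pair, while *Kcnk3* and *Kcnk5* stood clear of their neighbours. In the libraries labelled YT-AKO, *Kcnk3* (97.2 ± 29.99 TPM), *Kcnj8* (22.9 ± 4.90), *Kcnk2* (14.2 ± 3.75) and *Kcnk6* (9.26 ± 3.49) again led. *Kcnk5* (2.83 ± 0.809) was 5th, and *Kcnj15*, the 5th gene in YT-FF, was 8th at 0.650 ± 0.382 TPM. *Kcnj2* (0.978 ± 0.707), *Kcnj11* (0.894 ± 1.40), *Kcnj15*, *Kcnj12* (0.626 ± 0.836) and *Kcnj16* (0.498 ± 0.388) did not differ beyond their spread, and leaving out 1 library reordered them.

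**Figure D4:**
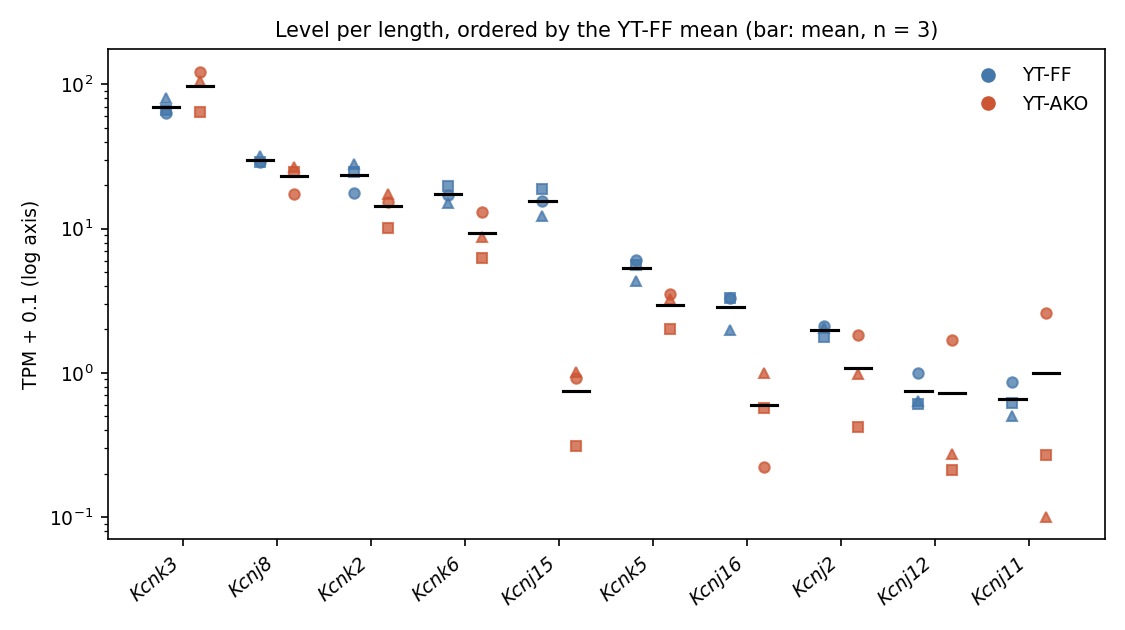
TPM of the 10 channel genes (vertical, log axis, with 0.1 added to each value) in YT-FF and YT-AKO libraries, ordered by the YT-FF mean. Symbols are libraries and bars are means (n = 3). *Kcnk3* leads in both groups at 69.8 and 97.2 TPM, while *Kcnj15* passes from 15.4 to 0.650 TPM.

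TPM and TMM-normalized CPM gave different pictures of the change. The median log2 ratio of group means in TPM was -0.66 over the tested genes, and 54.5% of them lay lower without overlap against 7.52% higher. Against that shift, *Kcnk3* was at 0.48 in TPM, 1.14 above the median, with 63.2, 66.3 and 79.8 TPM in YT-FF and 123, 64.1 and 105 TPM in the libraries labelled YT-AKO. Library 2 of the YT-AKO label then fell inside the YT-FF range. *Kcnj8*, *Kcnj16*, *Kcnk2*, *Kcnk5* and *Kcnk6* lay lower without overlap in TPM, as 54.5% of all tested genes did. *Kcnj8*, with a positive log2 fold change in CPM, was at -0.38 in TPM and 0.28 above the median. Relative to the median on this scale, *Kcnj15* was at -3.91 and *Kcnj16* at -1.81.

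Shares within a library do not depend on the scaling. *Kcnk3* made up 45.3, 44.04 and 48.9% of the summed TPM of the 9 genes other than *Kcnj15* in YT-FF and 69.1, 59.4 and 64.5% in the libraries labelled YT-AKO. *Kcnj15* made up 30.1, 35.0 and 25.2% of the TPM of the 6 inward rectifiers in YT-FF and 3.40, 0.820 and 3.10% in the libraries labelled YT-AKO. The ratio of *Kcnk3* to *Kcnk2* was 2.69 to 3.62 in YT-FF and 6.04 to 8.12 in the libraries labelled YT-AKO. None of these 3 measures overlapped between the groups. The share of *Kcnj15* rests on the fall for which the gene was picked.

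Outside the 10 genes, the potassium channel, auxiliary subunit and transport genes were taken as whole families by symbol. Of 115 such genes, 66 were tested, 2 were called higher (3.03%, against 12.6% of all tested genes) and 6 lower (9.09%, against 9.01%), with a median log2 fold change of -0.13. None of these 8 calls held without YT-FF library 1, and none without YT-FF library 2. In those fits 0 genes of the whole table were called higher, and 0 and 2 lower. Among 9 other inward rectifiers, 2 were tested, and *Kcnj14*, a channel known from motor neurons, fell from 4.05, 2.77 and 7.47 to 1.69, 1.53 and 1.66 CPM (-1.54, SE 0.415, adjusted p = 0.0380). That call was also lost in limma-voom (adjusted p = 0.0660), without YT-FF library 3 (0.104) and without library 1 (0.0648) or 3 (0.0738) of the YT-AKO label. Of 10 other two-pore genes, 3 were tested and 0 called by edgeR, DESeq2 or limma-voom, with 0 at an unadjusted p under 0.05. *Kcnk13*, the most abundant of them, was at 5.04 ± 0.689 and 4.09 ± 0.835 CPM (-0.30, SE 0.272, adjusted p = 0.428).

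Of 40 voltage-gated channel genes, 24 were tested. Of these, 1 was higher (4.17%, against 12.6% of all tested genes) and 3 were lower (12.5%, against 9.01%). *Kcna3*, a channel known from lymphocytes, fell from 139, 82 and 37 to 5, 0 and 12 counts (-3.49, SE 0.877, adjusted p = 0.0327). The log2 fold change of *Kcna3* ran from -4.65 without library 3 of the YT-AKO label to -2.92 without library 2, and the call was also lost without YT-FF library 3 (adjusted p = 0.0601) or library 1 of the YT-AKO label (0.0603). *Kcnq5*, a subunit of the muscarine-sensitive current of nerve and smooth muscle, fell from 63, 60 and 66 to 17, 15 and 21 counts (-1.48, SE 0.343, adjusted p = 0.0273). The *Kcnq5* call was also lost with a correction for gene length (-1.16, adjusted p = 0.0562) and without YT-FF library 3 (0.0789). The T cell markers summed to 259 to 403 CPM in YT-FF and 223 to 538 CPM in the libraries labelled YT-AKO. Of these 6 markers, 1 was called lower (against 9.01% of all tested genes). The B cell markers summed to 1016 to 1200 against 618 to 859 CPM, with 4 of 6 lower (against 9.01% of all tested genes). The part of lymphocytes in the values of *Kcna3* was not tested.

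No calcium- or sodium-activated channel gene (0 of 6 tested of 8, median log2 fold change 0.14) and no auxiliary subunit gene (0 of 13 tested of 25, median -0.29) passed the edgeR test. At an unadjusted p under 0.05, which 40.8% of all tested genes met, there were 3 of the former (*Kcnn1* higher, *Kcnn3* and *Kcnma1* lower) and 2 of the latter (*Kcne4* and *Dpp10*, both lower), and DESeq2 called 0 and 1, limma-voom 0 and 0. The 1 was *Lrrc38*, with 2, 0 and 1 counts in YT-FF against 34, 5 and 0 in the libraries labelled YT-AKO. The most abundant of the former, *Kcnn4*, was at 28.3 ± 4.41 and 32.8 ± 10.5 CPM (SD, n = 3 each). Among 23 pump and cotransporter genes, 18 were tested. Of these, 1 was called higher (5.56%, against 12.6% of all tested genes) and 2 lower (11.1%, against 9.01%). *Fxyd1*, a regulator of the sodium pump, rose from 52.5, 47.3 and 62.4 to 140, 289 and 143 CPM (1.82, SE 0.310, adjusted p = 0.0178). The potassium-chloride cotransporter gene *Slc12a7* fell from 127, 116 and 96.0 to 67.8, 76.6 and 76.6 CPM (-0.62, SE 0.162, adjusted p = 0.0366). With a correction for gene length the value of *Slc12a7* was -0.07 and its call was lost, as it was without YT-FF library 3 (adjusted p = 0.0523) and without library 1 (0.0786) or 3 (0.0699) of the YT-AKO label.

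**Figure D5:**
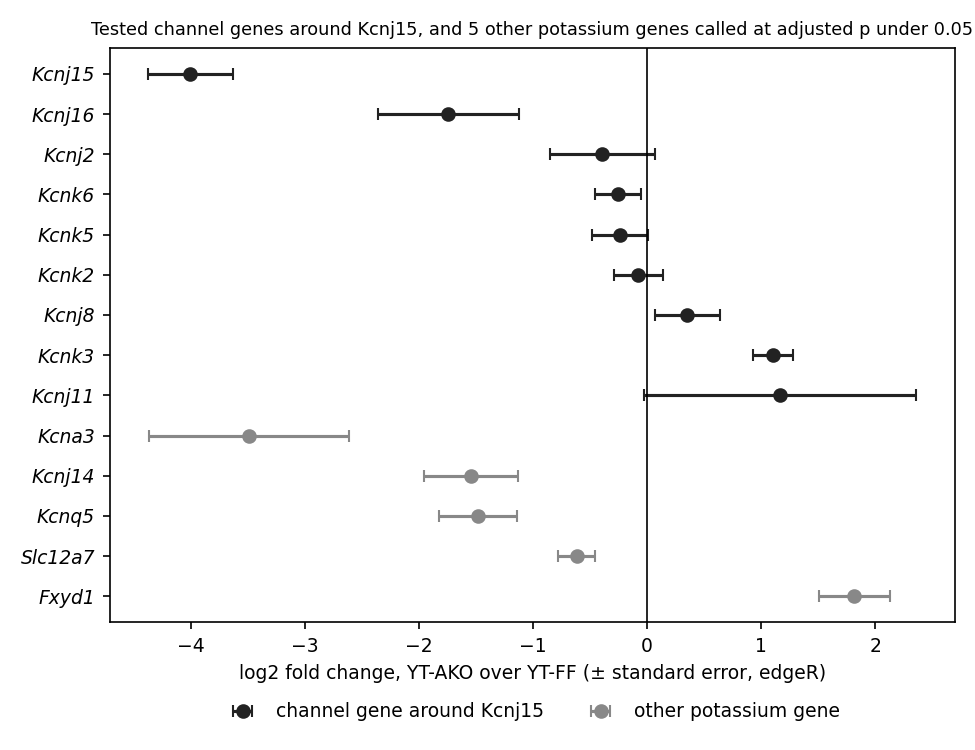
Log2 fold change (YT-AKO over YT-FF, horizontal axis, ± SE from edgeR) of the 9 tested channel genes around *Kcnj15* (black) and of 5 of the other potassium genes called at an adjusted p under 0.05 (grey). *Kcnj15* lies at -4.00 and *Kcnk3* at 1.11. *Kcnj11* has the widest error, with an SE of 1.196.

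The 250 bases upstream of the annotated starts were searched on both strands for GGAATG, the core letters bound by TEAD factors, the DNA-binding partners of YAP and TAZ, and for TGACG, the core of the cAMP response element (RefSeq, GRCm38.p6). The table held upstream sequence for 7 of the 10 genes; *Kcnk3*, *Kcnk6* and *Kcnj11* were not matched. The first motif was found upstream of 1 of the 7 (*Kcnk2*, 89 bases before a start), and 14.4% of all 27025 genes hold it. The second was found upstream of 1 (*Kcnj8*, 87 bases before the start), and 19.8% of all genes hold it. Neither set of letters stood in the window of *Kcnj15* or *Kcnj16*.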

How the data were processed

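RNA-seq of scWAT from 3 YT-FF (labelled WT) and 3 YT-AKO mice was used, grouped by the genotype in the labels. The authors mapped paired reads to mm10 with HISAT2 and, per the file headers, counted fragments over exons with featureCounts 2.0.1 and GENCODE vM25, without strand and leaving out fragments that overlap several genes. The deposited values are raw counts per gene, with no normalization or filter. Of 55401 genes, 55141 were matched by identifier to GENCODE vM21 (GRCm38) for symbols and coordinates. The libraries have no molecular identifiers.

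The main test used edgeR 4.0.16 in R 4.3.3 with the quasi-likelihood test, TMM factors, genes kept by filterByExpr at a count of 10 and a total of 15, and Benjamini-Hochberg adjustment over 16807 genes. A gene was called at an adjusted p under 0.05. The biological coefficient of variation was 0.288, and p-values measure only the spread between these libraries. CPM uses the TMM factors, and TPM the summed exon lengths. The fits were also run on simulated counts, with an outcome not reported here. Those counts held no outlying library and no shift with gene length, so they do not cover these features of the data.

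The 10 genes and all lists were chosen with earlier results of these data known. The text names the 10 genes, *Abcc8* and *Abcc9*, called genes of each family list or, with none called, its most abundant gene, the nearest tested gene on each side of *Kcnj15*, the 5 genes most like it, and the targeted genes; some genes that this rule names are not reported here. Cell type markers served as list totals. Not used beside a result above were the lists of endothelial cells (sums of 712 to 767 CPM in YT-FF and 654 to 985 CPM in the libraries labelled YT-AKO), macrophages (1243 to 1417 and 1836 to 2506), Schwann cells (259 to 324 and 209 to 303) and fibroblasts (3042 to 3850 and 4038 to 5603).

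Alternatives were DESeq2 1.42.0, limma-voom (limma 3.58.1), normalization by the upper quartile or by library totals alone, fits with no filter or with 10 counts required in every library, a robust dispersion, a block for the replicate number, a gene length correction (a spline of 6 degrees of freedom), these last 2 combined, and the removal of each library in turn. The comparison in TPM was added after seeing the data. Protein sequences were not analysed here.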

Additional observations from a re-analysis of the deposited data

How the results depend on the processing

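Among all tested genes, 2121 were called higher and 1515 lower. With library totals alone these were 1137 and 2828, and the median log2 fold change of all genes moved from -0.02 to -0.34. A gene length correction left 763 lower. With 1 library left out, 0 to 2925 were higher and 0 to 2424 lower, at the low end without YT-FF library 1 or 2. Of the channel genes other than *Kcnj15*, 1 was called higher (0 to 1 with 1 library left out), and 0 lower in edgeR, against 1 (*Kcnj16*) with DESeq2, with library totals alone and with no filter. At an unadjusted p under 0.05, 1 of them (*Kcnj16*) was lower in edgeR (as were 18.6% of all tested genes), and limma-voom called 0 lower. Of the potassium genes outside the 10, 2 were higher and 6 lower. These became 4 and 10 with DESeq2 and 1 and 14 with library totals alone. Upper-quartile normalization left 1 higher and the length correction left 3 lower, and with 1 library left out 0 to 2 were higher and 0 to 8 lower. The cause of these moves was not tested. The sign of uncalled values turned for *Kcnj8* (-0.00771 with library totals, -0.38 in TPM), *Kcnj11* (-0.71 in limma-voom, -1.57 without library 1 of the YT-AKO label) and *Kcnk2* (0.0571 with the length correction, 0.12 without YT-FF library 3). With 1 library left out, *Kcnj11* ran from -1.57 to 1.75 and *Kcnk2* from -0.26 to 0.12. *Kcnj15* stayed between -4.57 (TPM) and -3.68 under every alternative run.

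The replicate numbers showed no clear pairing of the libraries. Deviations of same-numbered libraries from their group means correlated at 0.126, -0.118 and -0.09, and 2 of the 6 libraries matched their own number best. Such deviations are tied to each other within a group, so this check cannot exclude pairing. With the replicate number as a block, 24 genes were called higher and 9 lower, and with the length correction added 59 and 22. The channel genes other than *Kcnj15* then gave 0 higher under both (*Kcnk3*, adjusted p = 0.0584 and 0.0563), and the other potassium genes 0 higher and 0 lower under both. *Kcnk2* was at 0.0858 with block and length correction.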

Other observations

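Other potassium genes were also highest in library 1 of the YT-AKO label, the library with the highest sum of skeletal muscle markers. They were chosen after their values were seen. *Kcna7*, a voltage-gated channel gene known from muscle, had 15, 3 and 3 counts in YT-FF against 28, 0 and 1 in the libraries labelled YT-AKO. *Kcng4*, a modifier subunit of voltage-gated channels, had 25, 18 and 15 against 69, 20 and 18 counts (edgeR, log2 fold change 1.24, SE 0.592, adjusted p = 0.153). *Atp4b*, a proton pump subunit gene, had 13, 5 and 6 against 44, 9 and 9 counts. In *Kcna7* and *Kcng4*, as in *Kcnj11* and *Kcnj12*, YT-FF library 1 was the highest of its group, and it also had the highest marker sum of its group. The part of muscle tissue in these values was not tested.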
